A study of Mus musculus with 4 samples.

Results

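Centromere, kinetochore and spindle checkpoint genes were examined in mouse embryonic fibroblasts (MEFs) with and without the histone H3.3 gene H3f3b. The set held 44 genes, named by their known roles, though with earlier results of these data known. Every array probe that the platform annotation assigns to 1 of them under its current or an older symbol was followed. Of the 44 genes, 36 had at least 1 named probe (55 probes in all), out of 16593 genes with a named probe, and 28 were detected well enough to be tested, out of 8047 genes tested. The KO group was 2 lines, H3f3b KO MEF replicates 1 and 2, of genotype H3f3b -/-, and the WT group was 2 lines, H3f3b WT MEF replicates 1 and 2, of genotype H3f3b WT/WT. All 4 lines came from C57BL6J embryos at day 12.5, littermates from matings between heterozygotes, with head and visceral organs taken off before culture, and all carried a stably introduced pBabe puro vector. The deleted allele was first made by crossing H3f3b Fl/Fl mice with Zp3Cre mice, whose Cre is active in the growing oocyte, so the gene was absent from every cell of a KO embryo. Each line was 1 culture measured on 1 Illumina MouseRef-8 bead array. The study described these as biological duplicates. The p-values below rest only on the spread between 2 lines per genotype, moderated by that of all probes tested.

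A centromere is the chromosomal site where the nucleosomes carry CENP-A, a variant of histone H3, in place of the usual H3. A layered protein network sits on that chromatin throughout the cell cycle, and the outer kinetochore, with the microtubule-binding Ndc80 complex, is assembled on it for mitosis. Kinetochores without microtubules hold the cell before anaphase through the spindle checkpoint, and the chromosomal passenger complex removes faulty attachments. Most of these genes are expressed in dividing cells, many of them most strongly in late S phase, G2 and mitosis, so in a culture of mixed cells fewer dividing cells and less RNA per dividing cell cannot be told apart.

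The targeted gene followed the labels. The H3f3b probe had deposited signals of 97.3 and 98.7 in the KO lines, not detected on either array, against 1735.7 and 1686.2 in the WT lines. It was at least 69.5-fold lower in KO (limma, adjusted p = 3.05e-05), counted against the dimmest signal called detected on the KO arrays. H3f3a, the other H3.3 gene, had a difference of -0.04 log2 units. The arrays detected 11202 to 11543 of 25697 probes. The KO arrays were brighter as a whole, with mean signals of 381.4 and 381.8 on the KO arrays against 290.7 and 294.4 on the WT arrays, so that comparisons between genotypes rest on the scaling between arrays. Fibroblast markers such as Col1a1, Thy1 and Vim were detected in all 4 lines, while 0 endothelial and 0 erythroid markers passed the detection filter.

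Across the whole set the KO lines had slightly lower values than the WT lines, and this came for the most part with 1 WT line. Of the 28 tested genes, 22 had a lower value in KO and 6 a higher one, where 47.6% of all genes tested were lower in KO. The median difference (KO minus WT) was -0.15 log2 units, with a range of -0.55 to 0.24, against a median of 0.01 over all genes. With median scaling in place of quantile normalization 11 were lower and 17 higher, but the median of all genes then stood at 0.28 and 23 of the 28 lay under it. Under the authors' own scaling 26 were lower and 2 higher, where 4611 of all 8047 genes were lower. The median of all genes was then -0.03, and 24 of the 28 lay under it. The study named centromere genes as a theme after arrays of these lines and of conditional KO cells (not analysed here), so the direction of the set is not independent evidence. The centromere gene values it plotted were means of the conditional KO cells. By qPCR the study also reported decreases for some of the genes it tested, Cenpa and Birc5 among them. It described moderate decreases of CENP-A protein by immunoblot in other KO lines. In nuclei of those same lines it reported the opposite by immunofluorescence, with more CENP-A signal and more CENP-A foci than in WT. In limma with Benjamini-Hochberg adjustment over all probes, 0 of the 28 genes passed an adjusted p of 0.05, and the lowest adjusted p was 0.570. Of all genes, 0.0124% passed, which was H3f3b alone. In simulated data 0% of probes with a true 1.5-fold change passed this threshold, so the adjusted test cannot exclude changes of that size. At an unadjusted p under 0.05, 3 genes were lower in KO (Mad2l1, Spc24 and Spc25) and 0 were higher, where 3.54% of all genes were lower and 4.59% higher.

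The genotypes did not overlap for 9 genes. Both KO arrays lay below both WT arrays for 7 of the 28 (Cenpa, Cenpt, Ndc80, Spc24, Spc25, Mad2l1 and Birc5), where 17.1% of all genes did so, and both lay above for 2 (Cenpq and Mad1l1), against 21.0% of all genes. Without overlap and 1.5-fold or more lower in KO were 0 of the 28, against 2.30% of all genes. WT replicate 2 was the highest of the 4 arrays for 20 of the 28 genes, against 29.0% of all genes, and stood above WT replicate 1 for 26 of them, as it did for 4021 of all 8047 genes. As a median over the genes, each taken relative to its own mean over the 4 arrays, the lines stood at -0.14 and -0.06 in KO replicates 1 and 2, -0.10 in WT replicate 1 and 0.29 in WT replicate 2. WT replicate 1 thus lay at the level of the KO lines, and KO replicate 2 was the lowest array for 9 genes (21.8% of all genes). WT replicate 1 was above both KO arrays for 8 genes (33.1% of all genes), between them for 13 (28.3% of all genes) and below both for 7 (38.6% of all genes). In contrast, WT replicate 2 was above both for 20 (35.9% of all genes).

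**Figure D1:**
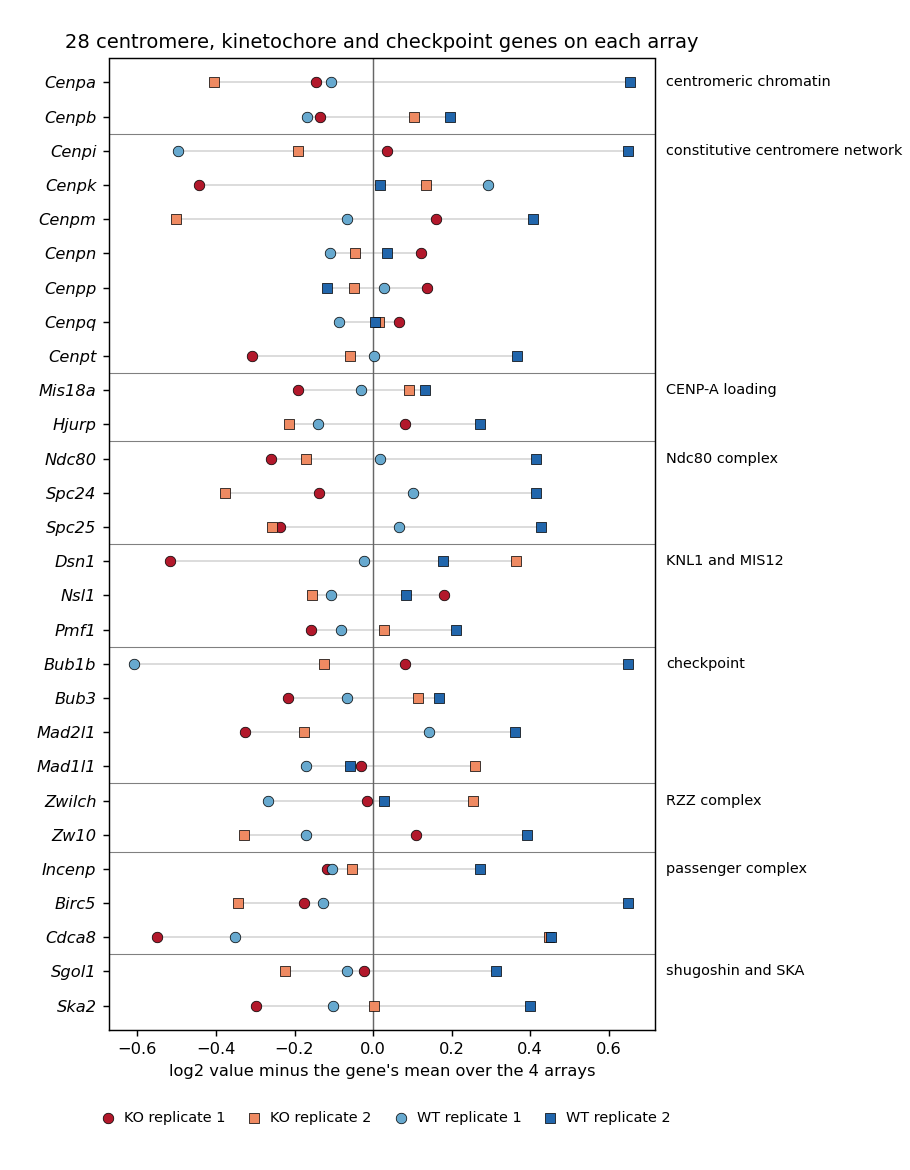
Log2 value of each of the 28 tested genes on each array, minus the gene's own mean over the 4 arrays, with genes grouped by role (1 point per array, KO red and orange, WT light and dark blue). WT replicate 2 is the rightmost point for 20 of the 28 genes, and the 2 KO points lie left of both WT points for 7.

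Centromeric chromatin was represented by Cenpa and Cenpb. Cenpa, which encodes the histone that marks active centromeres, had log2 values of 10.41 and 10.15 in the KO lines, against 10.45 and 11.21 in the WT lines. Both KO lines were lower than both WT lines, but KO replicate 1 and WT replicate 1 were nearly level and WT replicate 2 stood apart from all 3. The difference was -0.55 ± 0.27 (SE; 95% interval -1.20 to 0.10; limma, unadjusted p = 0.0857, adjusted p = 0.695), the most negative of the set. It shrank to -0.17 when WT replicate 2 was left out and grew to -0.93 when WT replicate 1 was. Cenpb, whose protein binds a short DNA motif in centromeric satellite repeats, had 8.85 and 9.09 in the KO lines, against 8.82 and 9.18 in the WT lines. Its 2 genotypes overlapped (-0.03 ± 0.20). The probe for Cenpc1, whose protein bridges CENP-A nucleosomes and the outer kinetochore, was not detected on any array.

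The promoters of Cenpa and of 3 further genes described below, those with the smallest p-values among the genes that hold a searched motif, are shown because genes of G2 and mitosis are commonly controlled through such elements. The sequences are RefSeq's, build GRCm38.p6, 250 bases before to 50 after the start of the gene on its own strand. Capitals mark the cell cycle homology forms TTTGAA and TTTAAA and the CCAAT box CCAAT, each searched on both strands (read on the other strand as TTCAAA and ATTGG, while TTTAAA reads the same on both), with overlaps allowed.
Cenpa (chr5:30666636-30666935, + strand): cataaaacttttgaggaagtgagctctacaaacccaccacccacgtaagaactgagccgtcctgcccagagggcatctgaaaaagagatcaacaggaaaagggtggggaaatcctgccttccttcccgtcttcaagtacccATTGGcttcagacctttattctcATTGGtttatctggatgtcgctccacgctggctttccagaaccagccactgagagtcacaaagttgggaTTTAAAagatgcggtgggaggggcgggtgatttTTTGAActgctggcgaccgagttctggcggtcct
Spc25 (chr2:69206164-69206463, - strand): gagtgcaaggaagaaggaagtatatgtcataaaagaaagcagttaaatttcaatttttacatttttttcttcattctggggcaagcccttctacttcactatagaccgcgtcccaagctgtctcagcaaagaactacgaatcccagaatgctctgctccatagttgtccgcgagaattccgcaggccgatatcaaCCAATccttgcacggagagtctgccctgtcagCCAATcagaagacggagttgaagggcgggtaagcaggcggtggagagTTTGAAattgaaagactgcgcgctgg
Ndc80 (chr17:71526808-71527107, - strand): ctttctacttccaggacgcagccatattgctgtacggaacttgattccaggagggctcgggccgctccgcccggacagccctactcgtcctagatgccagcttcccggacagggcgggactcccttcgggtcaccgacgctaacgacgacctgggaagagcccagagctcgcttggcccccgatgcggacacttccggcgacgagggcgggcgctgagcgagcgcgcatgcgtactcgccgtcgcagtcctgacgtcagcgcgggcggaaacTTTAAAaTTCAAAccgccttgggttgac
Birc5 (chr11:117848987-117849286, + strand): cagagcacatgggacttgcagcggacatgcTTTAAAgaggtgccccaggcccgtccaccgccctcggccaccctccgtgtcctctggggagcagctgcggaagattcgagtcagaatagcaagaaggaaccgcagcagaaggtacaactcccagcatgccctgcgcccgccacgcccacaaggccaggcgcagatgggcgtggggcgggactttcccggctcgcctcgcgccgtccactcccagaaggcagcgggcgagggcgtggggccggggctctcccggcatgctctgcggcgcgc

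The Cenpa window held 2 CCAAT boxes and 2 homology forms, the Spc25 window 2 CCAAT boxes and 1 homology form, the Ndc80 window 2 homology forms side by side, and the Birc5 window 1. Among 43 promoters of the 38 genes of the set found in the reference, 48.8% held TTTGAA or TTTAAA, against 27.6% of all 32851 promoters of the same length. CCAAT was present in 67.4%, against 37.4% of all, and 1 of the E2F forms TTTGGCGC, TTTCGCGC, TTTCCCGC or TTTGCCGC in 11.6%, against 2.26% of all. The Mad2l1 window held none of these letters. Spc24 was among the genes not found in the reference, so its promoter could not be searched. A match is a description of the sequence, not evidence that a factor binds there.

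The constitutive centromere network, the inner layer that stays on CENP-A chromatin throughout the cell cycle, had 7 tested genes with small differences in both directions (4 lower and 3 higher in KO, median -0.15). Cenpt, a histone-fold protein that connects centromeric DNA with the Ndc80 complex, had 9.01 and 9.26 in the KO lines, against 9.32 and 9.68 in the WT lines. These did not overlap, though KO replicate 2 and WT replicate 1 were close (-0.37 ± 0.20, unadjusted p = 0.117). Cenpk had 4.68 and 5.26 in the KO lines, against 5.42 and 5.14 in the WT lines, and was the 1 tested gene of the set with WT replicate 1 as the highest array. The Cenpk values lay near the detection limit, and the probe was not detected in KO replicate 1. Cenpm had 5.37 and 4.71 in the KO lines, against 5.15 and 5.62 in the WT lines, and overlapped between genotypes, though it was not detected in KO replicate 2. Further Cenpm probes gave -0.31, with overlap, and -0.44, without overlap. Cenpp, with 6.06 and 5.88 in the KO lines against 5.95 and 5.81 in the WT lines, also overlapped. Cenpi, whose product belongs with those of Cenph, Cenpk and Cenpm to 1 subcomplex, had a WT pair that spanned the KO pair, with 6.13 and 5.91 in the KO lines and 5.60 and 6.75 in the WT lines. The higher values in KO were small: 0.07 ± 0.18 for Cenpn, 0.09 ± 0.18 for Cenpp and 0.08 ± 0.17 for Cenpq, and all 3 turned negative under the authors' own scaling. A second probe for Cenpn gave -0.32. Cenph and Cenpo were not detected on any array, and Cenpl had no named probe.

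Of the factors that load new CENP-A, Hjurp, its dedicated chaperone, and Mis18a, a subunit of the complex that prepares centromeres for loading, differed little. Hjurp had 8.97 and 8.67 in the KO lines, against 8.75 and 9.16 in the WT lines, and Mis18a had 8.60 and 8.88 in the KO lines, against 8.76 and 8.92 in the WT lines. Both pairs overlapped, with differences of -0.13 ± 0.22 for Hjurp and -0.10 ± 0.19 for Mis18a, and the 95% interval for Hjurp, -0.64 to 0.38, leaves room for a difference as large as that of Cenpa. Oip5, the partner of Mis18a, had no named probe.

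The Ndc80 complex was the sub-group with the most uniform pattern. It is a rod of 4 proteins: Ndc80 and Nuf2 hold the microtubule, and Spc24 and Spc25 anchor the rod to the inner kinetochore. All 3 tested genes had both KO lines below both WT lines, with a median difference of -0.49, which was -0.26 without background correction and -0.23 with median scaling. Spc24 had 6.18 and 5.94 in the KO lines, against 6.42 and 6.74 in the WT lines. Spc25 had 6.39 and 6.37 in the KO lines, against 6.69 and 7.06 in the WT lines. Ndc80 had 5.99 and 6.08 in the KO lines, against 6.27 and 6.66 in the WT lines. In each case WT replicate 1 stood between the KO pair and WT replicate 2. The differences were -0.52 ± 0.20 for Spc24 (unadjusted p = 0.0352, adjusted p = 0.585 in limma), -0.49 ± 0.19 for Spc25 (0.0383 and 0.589) and -0.43 ± 0.20 for Ndc80 (0.0670 and 0.663). Without WT replicate 2 they were -0.36, -0.31 and -0.24 in the same order of genes. Probes of the same gene did not always give the same size: a second Spc24 probe, detected on 3 of the 4 arrays, gave -0.87 ± 0.39, and a second Spc25 probe gave -0.10 ± 0.19. That Spc25 probe had 6.46 and 6.33 in the KO lines, against 6.32 and 6.67 in the WT lines, so that the genotypes overlapped, and with the mean over both probes Spc25 was -0.30 (unadjusted p = 0.15 in limma). Nuf2 was not detected on any array.

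The KNL1 and MIS12 group, which joins the inner kinetochore to the Ndc80 complex and to the checkpoint proteins, had 3 tested genes, all overlapping between genotypes. Dsn1 had 4.56 and 5.44 in the KO lines, against 5.06 and 5.26 in the WT lines, with the KO lines at either end. Nsl1 had 5.26 and 4.92 in the KO lines, against 4.97 and 5.16 in the WT lines, and Pmf1 had 5.25 and 5.43 in the KO lines, against 5.32 and 5.62 in the WT lines. Their differences were -0.15 ± 0.30, 0.03 ± 0.20 and -0.13 ± 0.19 for Dsn1, Nsl1 and Pmf1. The signals of these probes lay near the detection limit. Mis12 was not detected on any array, and Knl1 and Zwint had no named probe.

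The spindle checkpoint genes differed in direction. Mad2l1, which encodes MAD2, the protein that in its closed form holds the anaphase activator CDC20, had 7.94 and 8.09 in the KO lines, against 8.40 and 8.62 in the WT lines. It had the smallest p-value of the set, with a gap between the genotypes wider than the gap within either. The difference was -0.50 ± 0.18 (95% interval -0.93 to -0.07, unadjusted p = 0.0280, adjusted p = 0.570 in limma). It was -0.39 when WT replicate 2 was left out, -0.61 when WT replicate 1 was, and -0.18 under median scaling (unadjusted p = 0.356 in limma). Mad1l1, the kinetochore receptor of MAD2, had the opposite sign, with 5.97 and 6.26 in the KO lines against 5.83 and 5.94 in the WT lines. KO replicate 1 was barely above WT replicate 2 (0.23 ± 0.19, unadjusted p = 0.259), and the value was 0.03 under the authors' own scaling and 0.46 with median scaling. Bub1b, which encodes BUBR1, a subunit of the checkpoint complex that inhibits CDC20, had 6.12 and 5.91 in the KO lines, against 5.42 and 6.68 in the WT lines. The WT lines were the lowest and the highest of the 4. The gap between them, 1.26, was the widest between WT lines in the set, and the mean difference was -0.04 ± 0.38. Leaving out 1 WT line turned this difference to 0.59 (without WT replicate 2) or to -0.67 (without WT replicate 1). Bub3, the partner of BUB1 and BUBR1, had 6.65 and 6.98 in the KO lines, against 6.80 and 7.03 in the WT lines, and overlapped. Bub1, the checkpoint kinase, was not detected on any array.

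Of the RZZ complex, which recruits dynein and the MAD1 and MAD2 proteins to kinetochores, Zw10 had 7.01 and 6.57 in the KO lines, against 6.73 and 7.29 in the WT lines, and Zwilch had 5.49 and 5.77 in the KO lines, against 5.25 and 5.54 in the WT lines. Both overlapped between genotypes. The difference was -0.22 ± 0.25 for Zw10 and 0.24 ± 0.20 for Zwilch, the most positive of the set, but 2 other Zwilch probes gave -0.07 and -0.18. Kntc1, the third subunit, had no named probe. Of the fibrous corona, the outermost kinetochore layer, the kinesin gene Cenpe was not detected and Cenpf had no named probe.

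In the chromosomal passenger complex, the kinase Aurora B (Aurkb) had no named probe, and its 3 partners were all tested. All 3 had lower values in KO, of which those of Incenp and Cdca8 were higher under median scaling (0.12 and 0.18). Birc5, which encodes survivin, had 8.82 and 8.65 in the KO lines, against 8.87 and 9.64 in the WT lines. KO replicate 1 and WT replicate 1 were nearly level and WT replicate 2 was far above, the pattern also seen for Cenpa. The difference was -0.52 ± 0.27 (unadjusted p = 0.0979, adjusted p = 0.715 in limma). The further probes of Birc5 gave -0.47 and -0.46, but on both WT replicate 1 lay between the KO lines, so that the genotypes overlapped. On the probe used for the gene, the value without WT replicate 2 was -0.13. Incenp, the scaffold of the complex, had 7.02 and 7.08 in the KO lines, against 7.03 and 7.41 in the WT lines, so that 3 lines were level and WT replicate 2 alone was higher. Cdca8, which encodes borealin, had 6.40 and 7.40 in the KO lines, against 6.60 and 7.41 in the WT lines. Here the replicates split within both genotypes, replicate 2 being higher by 1.00 in KO and by 0.80 in WT, and the difference between genotypes was -0.10 ± 0.38.

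Sgol1, which encodes the shugoshin that protects cohesin at centromeres, had 6.81 and 6.61 in the KO lines, against 6.77 and 7.15 in the WT lines. Ska2, a subunit of a complex that keeps kinetochores on shortening microtubules, had 6.73 and 7.03 in the KO lines, against 6.93 and 7.43 in the WT lines. Both overlapped because WT replicate 1 lay within the KO pair, with differences of -0.25 ± 0.20 and -0.29 ± 0.23. Sgol2 had no named probe and Ska1 was not detected on any array.

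**Figure D2:**
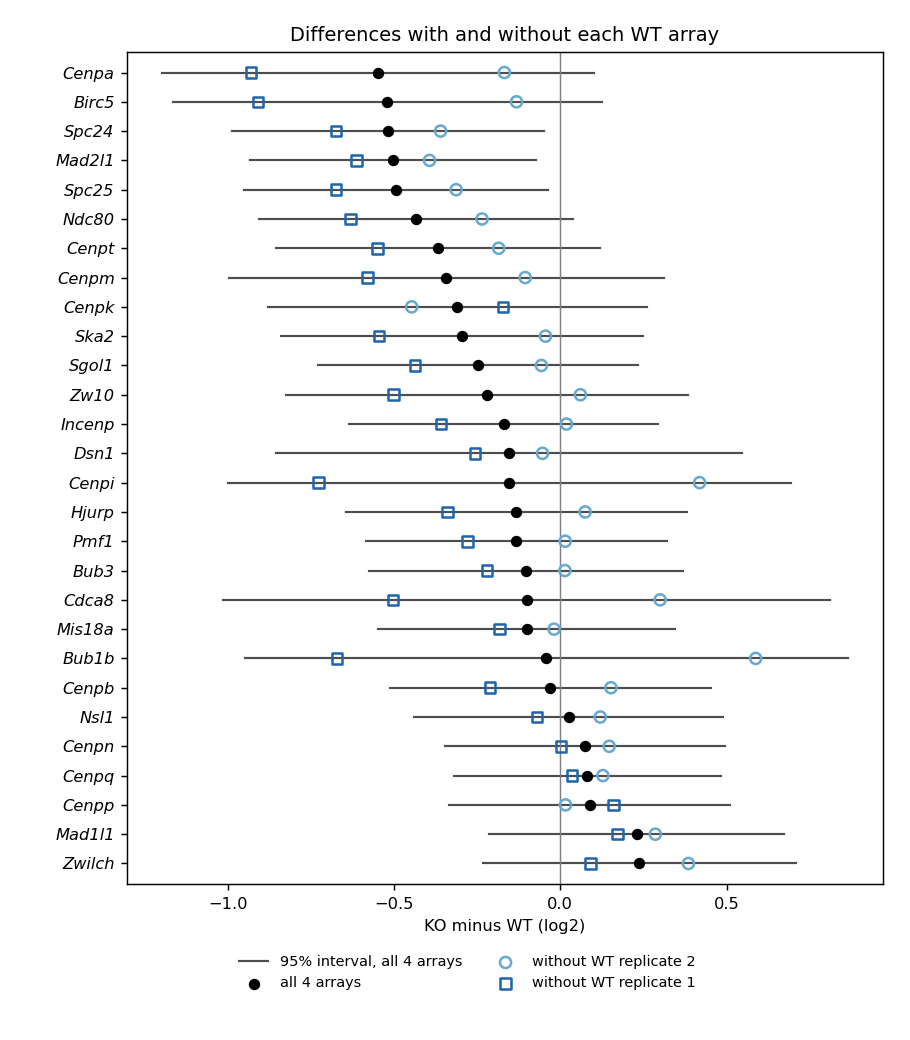
Difference between genotypes (KO minus WT, log2) of the 28 tested genes, ordered by size, with the 95% interval of the limma fit over all 4 arrays (black) and the difference after leaving out WT replicate 1 (dark squares) or WT replicate 2 (light circles). Without WT replicate 2, 13 genes have a value below 0, and the most negative values are those of Cenpk (-0.45), Mad2l1 (-0.39), Spc24 (-0.36) and Spc25 (-0.31). Cenpk was not detected in KO replicate 1.

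Leaving out WT replicate 2 moved the median difference of the 28 genes to 0.01, with 13 lower and 15 higher in KO. Leaving out WT replicate 1 moved it to -0.40, with 23 lower, and raised the number lower at an unadjusted p under 0.05 to 10 (Cenpa, Cenpi, Cenpt, Ndc80, Spc24, Spc25, Bub1b, Mad2l1, Birc5 and Ska2), where the number over all genes was then 475 (5.90%). Without WT replicate 2 it was 0 of the 28, against 4.95% of all genes. Leaving out KO replicate 1 gave a median difference of -0.14, and leaving out KO replicate 2 gave -0.21. The 8 genes with WT replicate 1 above both KO arrays were the 7 without overlap named above and Cenpk.

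The 6 genes with the most negative differences are shown on both scales, because the separation between genotypes depended on the scaling. In deposited signals Mad2l1 had 366.7 and 397.8 in the KO lines, against 356.4 and 400.1 in the WT lines, and Spc25 had 180.9 and 177.5 in the KO lines, against 157.6 and 186.7 in the WT lines. On that scale both genes overlapped between genotypes. Of the 28 genes, 15 had a higher deposited signal on both KO arrays than on both WT arrays, against 88.9% of all genes, the KO arrays being brighter as a whole, and 0 had a lower one on both, against 0.447% of all genes. The lower normalized values in KO are therefore values relative to the other probes of the same array.

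**Figure D3:**
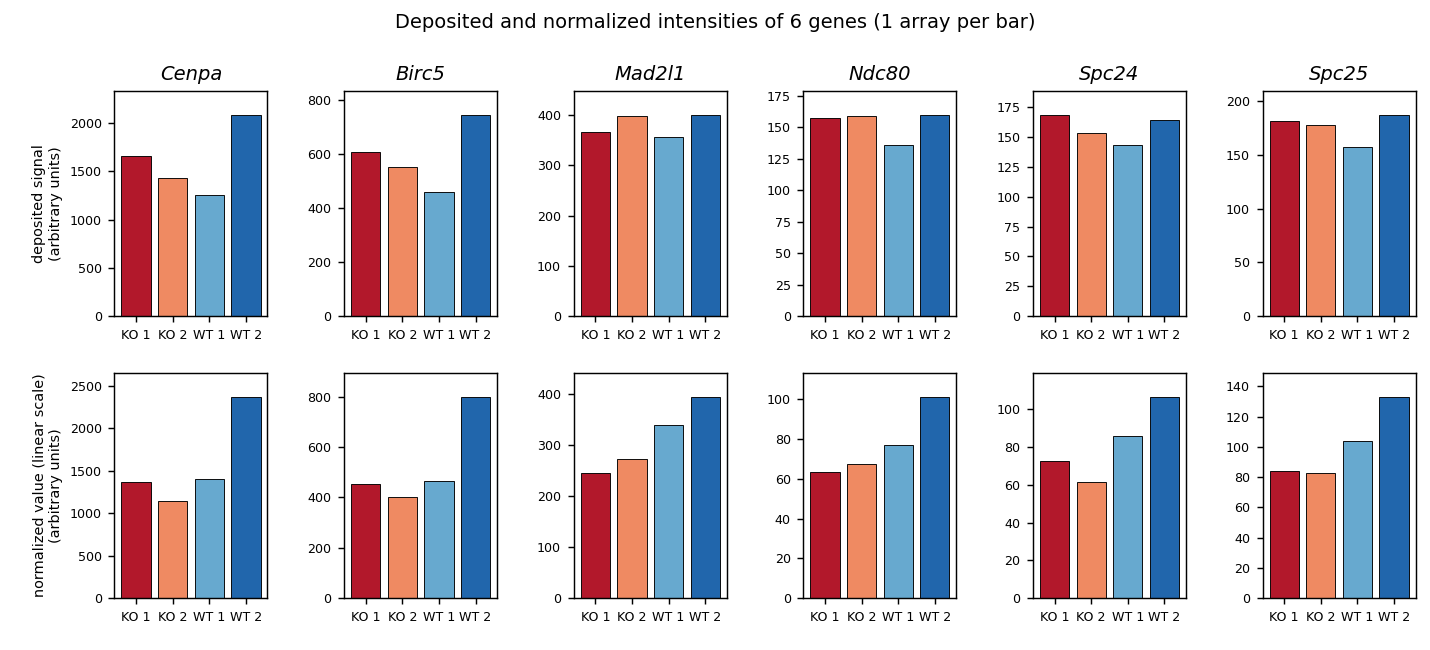
Deposited signal (upper) and background-corrected, quantile-normalized value on a linear scale (lower), in arbitrary units, of Cenpa, Birc5, Mad2l1, Ndc80, Spc24 and Spc25, 1 bar per array with KO on the left. In the upper panels the genotypes overlap for each of the 6 genes, and in the lower panels both KO bars are below both WT bars.

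The 8 genes with a named probe but no detected one were Cenpc1, Cenph, Cenpo, Nuf2, Mis12, Bub1, Cenpe and Ska1, and their 10 probes had signals of 84.1 to 112.0 in KO and 77.0 to 93.6 in WT, at the level of undetected probes as a whole (medians of 94.6 to 97.1 in KO and 80.9 to 84.4 in WT). This is a limit of detection and does not show that the genes were silent. The 8 with no named probe were Cenpl, Oip5, Knl1, Zwint, Kntc1, Cenpf, Aurkb and Sgol2. All 28 tested genes were detected on at least 1 array of each genotype, 25 of them on all 4 arrays.

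In a further list of kinetochore and checkpoint genes outside the set WT replicate 2 was again the highest line. Of 20 listed, 11 were tested, 8 lower and 3 higher in KO (median -0.26), and 0 had an unadjusted p under 0.05 in either direction in limma. WT replicate 2 was highest for 8 of the 11, and the lines stood at -0.07 and -0.20 in KO replicates 1 and 2, -0.09 in WT replicate 1 and 0.33 in WT replicate 2. WT replicate 2 was also the highest line for genes of other phases of the cell cycle. For 14 genes of S phase, such as those of the replicative helicase, the medians were -0.16 and -0.19 in the KO lines, against -0.12 and 0.45 in the WT lines. For 9 genes of G2 and mitosis they were -0.12 and -0.29 in the KO lines, against -0.08 and 0.52 in the WT lines. WT replicate 2 was the highest array for 13 of the 14 and for 9 of the 9.

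Markers of macrophages were lowest in WT replicate 2. Of 14 listed, 11 were tested and all 11 had higher values in KO (median 0.58, 7 at an unadjusted p under 0.05), with medians of 0.49 and 0.14 in KO replicates 1 and 2, -0.14 in WT replicate 1 and -0.58 in WT replicate 2. Their summed linear level was 42250 and 32810 in KO, against 28140 and 23590 in WT, and that of the 28 centromere and kinetochore genes was 5417 and 5424 in KO, against 5642 and 8012 in WT. WT replicate 2 had the highest sum for the set and the lowest macrophage sum. The other 3 lines differed in macrophage sum and had nearly equal sums for the set. Such sums are weighted to the brightest probes. The 9 fibroblast markers summed to 30920 and 30400 in KO, against 33160 and 29100 in WT, with 8 of 9 lower in KO (median -0.23). The part of cell composition and of the share of dividing cells in the differences of the set was not tested.

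**Figure D4:**
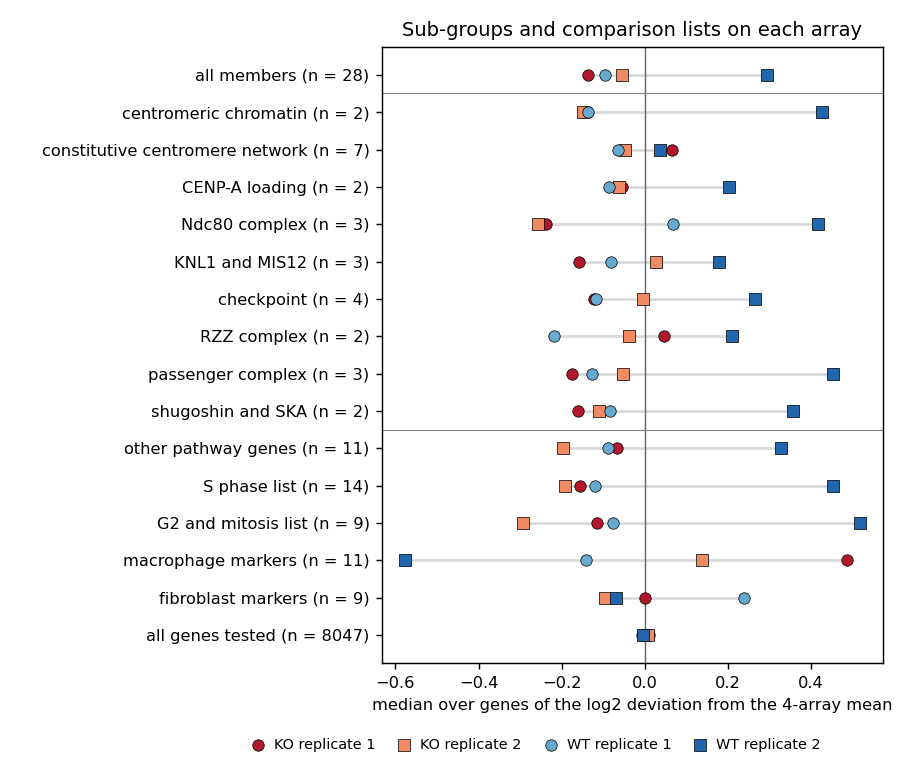
Median, over the tested genes of each sub-group or list, of the log2 deviation from the gene's mean over the 4 arrays (n is the number of genes; 1 point per array). WT replicate 2 is highest for the whole set, for every sub-group but the constitutive centromere network, and for the S phase and G2 lists, and lowest for the macrophage markers, and the Ndc80 complex is the sub-group in which WT replicate 1 lies furthest above both KO lines.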

How the data were processed

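Total RNA of 2 KO and 2 WT MEF lines was measured on Illumina MouseRef-8 arrays. The authors averaged the bead signals per probe in GenomeStudio, and the deposited intensity values are neither background subtracted nor scaled. Beside each, the authors deposited a detection p-value against the negative controls of the same array. A second deposited table holds intensity values that the authors multiplied by 1 factor per array to a common mean.

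The signals were background corrected by way of the detection p-values, quantile normalized and put on the log2 scale (neqc, offset 16; limma 3.58.1, R 4.3.3). A probe was kept where 2 or more of the 4 arrays had a detection p under 0.05 (11552 probes), and a gene was its tested probe with the highest mean, which is a choice for 7 genes of the set. All probes were fitted together (lmFit and eBayes, two-sided tests, with 2 degrees of freedom from the residuals and 4.86 from the prior) with Benjamini-Hochberg adjustment, and only the genes of the set are printed. The number of arrays limits the precision. Levels of different probes were not compared. The steps were tested on simulated data, with 50 changed probes at each size of change. The changed probes were drawn from those clearly above the detection limit, so the shares that follow do not cover the dimmest genes of the set. At a true 1.5-fold change 0% of them passed an adjusted p of 0.05, and 88% had an unadjusted p under 0.05. At 2-fold 62% passed the adjusted threshold, and at 4-fold 100% did. The largest difference of the set, that of Cenpa, was 1.46-fold. The lack of a call after adjustment therefore does not show that the genes of the set were unchanged.

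The genes and lists were chosen with earlier results of these data known. Values are given for Cenpa and for up to 4 genes of each sub-group with the smallest p-values, and for Cenpi, added after its values were seen for its wide WT spread. Further lists were other kinetochore genes, S phase, G2 and mitosis, and markers of fibroblasts, macrophages, endothelium, epithelium (2 tested, 1 of them lower in KO), erythroid cells, neurons (2 tested, 1 lower) and skeletal muscle (1 tested, higher). Same-numbered lines did not deviate together (correlation -0.04), so the numbers were not taken as pairs. Alternatives were no background correction, an offset of 50, median scaling, the authors' scaling, no and a stricter detection filter, a trend with robust variances, a replicate block, the mean over probes, and leaving out each array. Protein sequences were not used here.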

Additional observations from a re-analysis of the deposited data

How the results depend on the processing

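H3f3b passed the test under every alternative that kept its probe (the strict filter removed it), and 0 genes of the set passed an adjusted p of 0.05 under any. Leaving out each array in turn, 13 to 23 genes were lower in KO (0 to 10 at an unadjusted p under 0.05), the median difference ran between -0.40 and 0.015, and the lone array of a genotype was assumed to vary like the other genotype. That changed sign for Cenpb (-0.21 to 0.15), Cenpi (-0.73 to 0.42), Cenpn (-0.0098 to 0.16), Cenpp (-0.0043 to 0.18), Mis18a (-0.24 to 0.040), Hjurp (-0.34 to 0.075), Dsn1 (-0.59 to 0.29), Nsl1 (-0.14 to 0.19), Pmf1 (-0.28 to 0.015), Bub1b (-0.67 to 0.59), Bub3 (-0.27 to 0.063), Zw10 (-0.50 to 0.061), Incenp (-0.36 to 0.019) and Cdca8 (-0.60 to 0.40), and for the medians of the constitutive network (-0.17 to 0.016), CENP-A loading (-0.26 to 0.028), KNL1 and MIS12 (-0.26 to 0.015), checkpoint (-0.42 to 0.15), RZZ (-0.21 to 0.22) and passenger genes (-0.50 to 0.019). Under median scaling the median over every tested gene was 0.28, and in the set 11 genes were lower, with a median of 0.069. In the set 0 genes were lower at an unadjusted p under 0.05 in limma, against 103 of all 8047 genes, and 1 was higher, against 1812. Under the same scaling Cenpb was 0.32, Cenpi 0.072, Mis18a 0.23, Hjurp 0.20, Pmf1 0.042, Bub1b 0.18, Bub3 0.17, Zw10 0.066, Incenp 0.12, Cdca8 0.18 and Sgol1 0.030. The medians were 0.049 for centromeric chromatin, 0.072 for the constitutive network, 0.22 for CENP-A loading, 0.042 for KNL1 and MIS12, 0.18 for checkpoint, 0.12 for passenger and 0.010 for shugoshin and SKA genes. As scaled by the authors, Cenpb was 0.039, Cenpn -0.016, Cenpp -0.039, Cenpq -0.10, Nsl1 -0.11, Zwilch -0.0077 and the RZZ median -0.083. The RZZ median was -0.024 without background correction, -0.018 with an offset of 50 and -0.11 with the mean over probes, which gave Cenpn -0.12 and Zwilch -0.0048. A trend with robust variances gave 5 genes lower in KO at an unadjusted p under 0.05 in limma, adding Cenpa and Birc5, against 316 of all 8047 genes. With line numbers as a replicate block this count was 3, against 305 of all genes, and the block changed no call of the set. The cause of these changes was not tested. With 2 lines per genotype an exact permutation test cannot go below p = 0.333, and probes near the detection limit give only weak bounds.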
